A study of Mus musculus with 10 samples.

Results

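TGF-beta, activin and BMP signalling is described here through 46 genes of the mouse genome, taken as every probe of the array whose gene name equals 1 of a list of ligands, latency and maturation proteins, receptors, extracellular antagonists, SMADs, SMAD regulators and the response gene Ccn2 (Ctgf). All 46 genes were on the array, with 73 probes, among 34607 genes and unnamed transcripts in all. Of the 46 genes, 35 were measured, meaning that 4 or more of the 10 scans showed a probe well above background, and the other 11 were too dim to be tested. With the miR-142-3p mimic 5 of the 35 measured genes were lower (14.3%) and 2 were higher (5.71%) at an adjusted p below 0.05. Ccn2, Bmp4, Acvr2a, Tgfb2 and Ltbp4 fell, and Grem1 and Ltbp1 rose. Over all 13677 genes tested 3.89% were lower and 5.85% higher.

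The cells were C2C12, an established line of mouse myoblasts that can fuse into myotubes. They received a mirVana mimic of miR-142-3p, a microRNA best known from blood cells, or a scrambled sequence, each at 150 nM with a cationic lipid reagent, and total RNA was taken 72 h later and labelled with Cy3 for a 1-colour Agilent array. Both groups therefore share the line, the lipid reagent, the dose and the time, and the stated transfection efficiency was about 60%, so the RNA of each dish came from transfected and untransfected cells together. A remark on re-analysis stands in the 4 scramble titles and in none of the mimic titles, and what it refers to is not stated.

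The labels name 6 mimic and 4 scramble samples as repeated transfections, whereas the file headers place the 10 scans on 1 slide with 5 array positions, every position having been scanned on 2 days. Scans of the same position were averaged, which gave 3 mimic arrays and 2 scramble arrays. Signals of scans from 1 position correlated at r = 0.990 to 0.993 over 12637 probes, and other pairs of scans at r = 0.911 to 0.992. Nothing in the headers says which culture each position came from, so the p-values measure only how far these 5 arrays scatter, and part of that scatter may be technical. Between 25.4% and 34.6% of the 59305 spots that are not controls were well above background on each scan. The number of arrays limits the precision.

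Ligands of the TGF-beta family are secreted as precursors, are held in the matrix or bound by antagonists, and signal through pairs of type I and type II receptor kinases that phosphorylate SMAD proteins. TGF-beta and activins act mainly through Smad2 and Smad3, BMPs through Smad1, Smad5 and Smad9, and both classes need Smad4. In muscle precursors TGF-beta, activin and myostatin are known to restrain differentiation, and BMPs are known to turn C2C12 cells towards bone-like features.

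The transfected microRNA and the member probes that hold a match to its seed are shown because they are the only member sequences on the array that pair with it in this way. The mature mouse sequence, from RefSeq (GRCm38.p6, chr11:87756903-87756925, plus strand), has its seed, bases 2 to 8, in capitals.

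mmu-miR-142a-3p: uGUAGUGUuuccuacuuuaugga

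A target carries the reverse complement of the seed, ACACTAC, which becomes ACACTACA with an A opposite the first base. Of all 55681 probes 144 held ACACTAC on the sense strand (0.259%), and 56 held ACACTACA (0.101%). Of the 73 member probes 2 held ACACTAC, 1 for Tgfbr1 and 1 for Tgfbr2, the receptors of TGF-beta itself. The following 30 bases of each probe, in mm9 coordinates from the array, have the match in capitals.

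Tgfbr1 (chr4:47427736-47427765, plus strand): tttcatcctaACACTACAgtagaaaatgga

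Tgfbr2 (chr9:115999496-115999525, minus strand): gaagatggctcgctgaACACTACcaaatag

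A match is a description of these letters and not a measured site. Probes are 60 bases long and cover little of a transcript, so the other members were not searched beyond their probes. The values of both receptors are given below with the other receptors.

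Across the array 13677 genes were tested with limma and Benjamini-Hochberg adjustment, and 1332 passed an adjusted p of 0.05, which is 9.74% of them, with 532 lower with the mimic (3.89%) and 800 higher (5.85%). Of the 35 measured members 7 passed (20%), 5 lower (14.3%) and 2 higher (5.71%). The share of higher members was thus near that of all genes, and the share of lower members was above it, on counts of 5 and 2 genes. Of the lower members, Ccn2 and Acvr2a were kept through their 4 scramble scans, with 0 and 1 mimic scans well above background. With only probes well above background on all 10 scans, 28 members were measured, 4 of them lower and 3 higher. In that setting 373 of 10336 genes were lower and 620 higher. The median difference, mimic minus scramble on the log2 scale, was −0.03 over the 35 members and 0.09 over all genes tested, and the fitted differences of the members ran from −2.79 to 1.74. The mimic and scramble arrays did not overlap for 19 of the 35 members, against 42.4% of all genes. The counts rested in part on single arrays. Leaving out 1 mimic array at a time left 2 or 3 members lower and 1 higher, with 584 to 676 genes called in all. Leaving out a scramble array left 1 array in that group, whose scatter was then not measured, so those counts are not given.

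**Figure D1:**
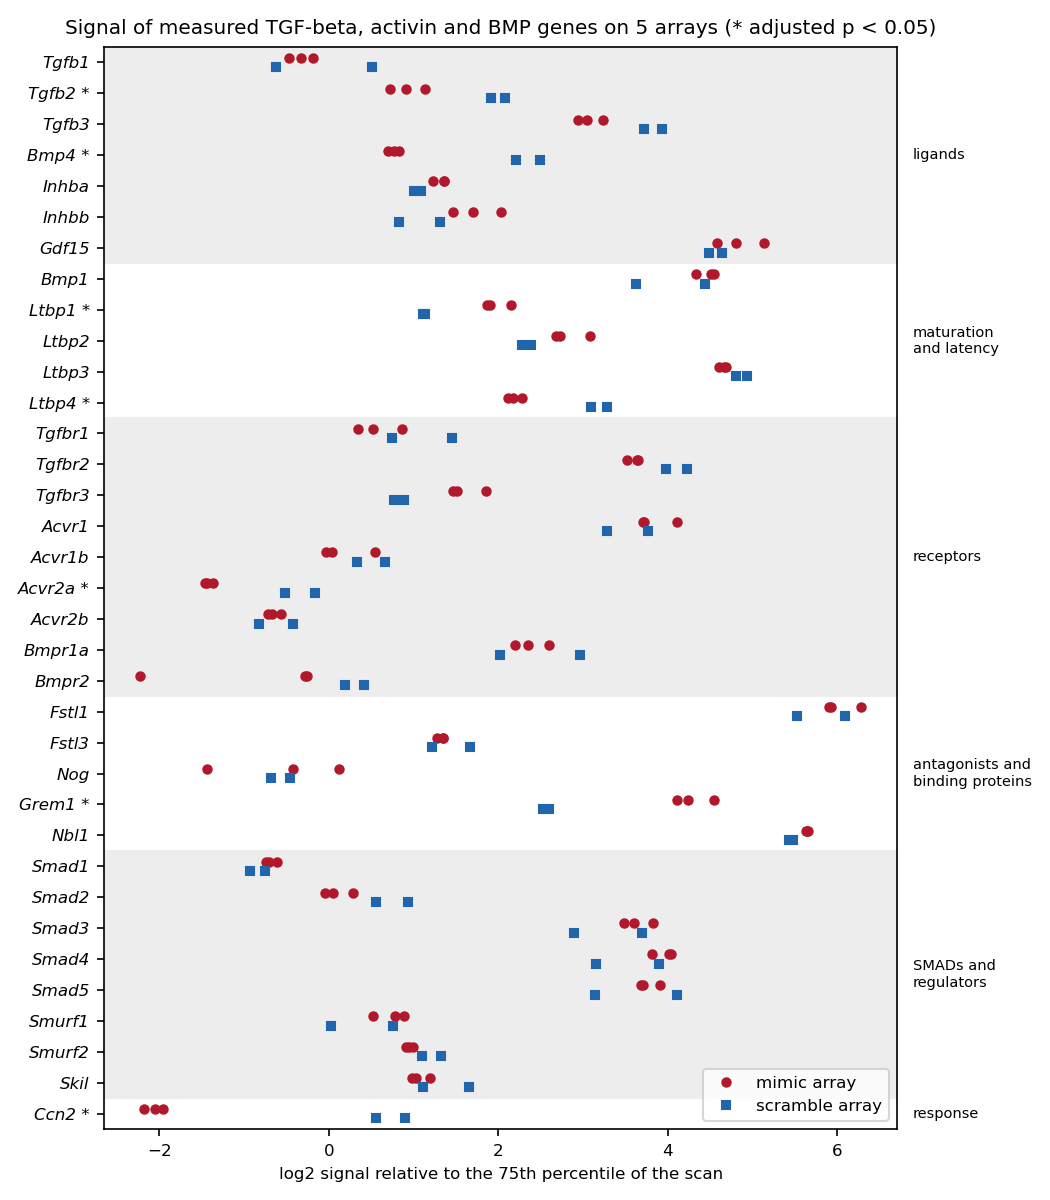
Each row is a measured member, each red circle a mimic array and each blue square a scramble array, placed on the log2 signal relative to the 75th percentile of the scan, the mean of 2 scans; shading separates the roles and a star marks an adjusted p below 0.05. Ccn2 lies between −2.18 and −1.95 on the mimic arrays and between 0.56 and 0.90 on the scramble arrays, whereas the red and blue points of most SMADs interleave.

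In the values that follow, a level is the log2 signal of a probe relative to the 75th percentile of its scan, so levels compare arrays for 1 probe and not 1 probe with another. The RNA is that of whole dishes, where fewer cells of a type and less RNA per cell cannot be told apart.

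Among the 10 ligand genes 7 were measured, 2 were lower and none was higher, with a median difference of −0.27. Bmp4, which encodes the only BMP ligand of the list that was measured, lay at 0.70, 0.77 and 0.83 on the mimic arrays and at 2.50 and 2.21 on the scramble arrays. All 3 mimic arrays were thus well below both scramble arrays and close to each other. The probe (mm9 chr14:47003391-47003450, minus strand) averaged 0.76 ± 0.07 (SD, n = 3) with the mimic and 2.35 ± 0.20 (SD, n = 2) without it, a fall by 1.59 ± 0.20 (SE) on the log2 scale or 3.00-fold (limma, adjusted p = 0.00174). Bmp4 passed the test under all 19 alternative settings.

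Tgfb2 encodes 1 of the 3 TGF-beta ligands. Its signal was 1.14, 0.91 and 0.72 on the mimic arrays and 1.92 and 2.07 on the scramble arrays, with no overlap. The fall was by 1.07 ± 0.21 (SE) on the log2 scale, or 2.11-fold (limma, adjusted p = 0.0168; mm9 chr1:188449333-188449392, minus strand). A dimmer probe of the gene fell short of the threshold, with a difference of −0.72 (limma over all kept probes, adjusted p = 0.128). Tgfb2 did not pass in 6 of 20 settings, which include leaving out mimic array 2, mimic array 3 or scramble array 2.

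The other TGF-beta genes did not pass. Tgfb3 was at 2.94, 3.23 and 3.04 with the mimic and at 3.93 and 3.72 with the scramble. These groups did not overlap, and the difference of −0.75 ± 0.20 (SE) lay just outside the threshold (limma, adjusted p = 0.0546). It passed in 9 of 19 alternative settings, each time as a lower value. Tgfb1, the most studied isoform, differed by −0.27 with a 95% interval of −1.01 to 0.47, and its 2 scramble arrays, at −0.63 and 0.51, lay on either side of all 3 mimic arrays.

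Inhba and Inhbb encode the beta chains that form activins and inhibins. Inhbb was at 1.47, 2.03 and 1.70 with the mimic and at 1.31 and 0.83 with the scramble, a difference of 0.66 ± 0.25 (SE) that did not pass (limma, adjusted p = 0.143). Inhba differed by 0.27 (adjusted p = 0.412, limma). Gdf15, a stress-induced and distant family member, differed by 0.28, with levels of 4.58 to 5.13 with the mimic and 4.48 and 4.64 with the scramble, which overlap. No scan had Bmp2, Bmp6 or Bmp7 well above background.

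Of the 5 genes for maturation and latency all were measured, and they moved in both directions. The latent TGF-beta binding proteins, encoded by Ltbp1 to Ltbp4, tie the latent ligand to the matrix or, in some cases, serve elastic fibres. Ltbp4 was at 2.27, 2.11 and 2.17 with the mimic and at 3.09 and 3.28 with the scramble, so the groups stood well apart. It fell by 0.999 ± 0.193 (SE) on the log2 scale, or 2.00-fold (limma, adjusted p = 0.0160; mm9 chr7:28090175-28090234, minus strand). A second kept probe of Ltbp4 fell further, by 1.73 ± 0.29 (SE), and passed as well (limma over all kept probes, adjusted p = 0.00855). Leaving out any 1 mimic array ended the call of the brightest Ltbp4 probe, as did scaling to the scan median and testing without a filter.

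Ltbp1 went the other way. Its signal was 1.90, 1.87 and 2.15 with the mimic and 1.13 and 1.11 with the scramble. Both scramble arrays agree closely and lie below every mimic array. The rise was 0.85 ± 0.20 (SE) on the log2 scale, or 1.81-fold (limma, adjusted p = 0.0333; mm9 chr17:75790530-75790589, plus strand). Ltbp1 did not pass in 10 of 19 settings, which include leaving out mimic array 1, mimic array 2, mimic array 3 or scramble array 2 and taking the slide row as a block, and its sign was positive in all 19. Ltbp2 had a difference of 0.50 (limma, adjusted p = 0.186) and Ltbp3 one of −0.22 (limma, adjusted p = 0.511). Bmp1, a metalloproteinase that cleaves procollagens and the BMP antagonist chordin, differed by 0.43 in its brightest probe and by −0.50 and −0.44 in its other kept probes, none of which passed.

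**Figure D2:**
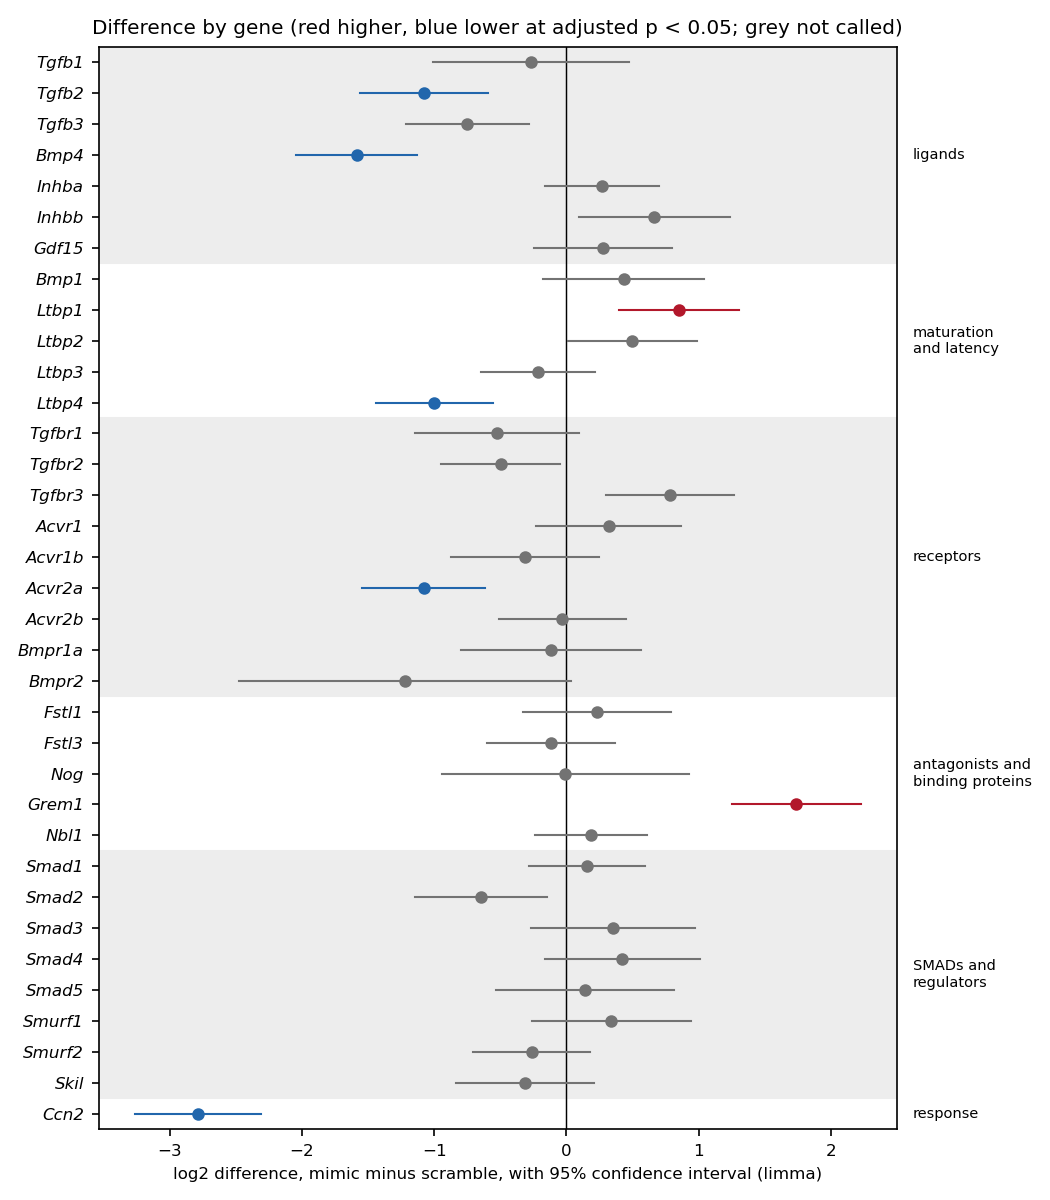
Points are log2 differences, mimic minus scramble, for the 35 measured members by role, with 95% confidence intervals from limma; blue and red mark genes lower and higher at an adjusted p below 0.05 and grey those that did not pass. The 7 coloured genes run from Ccn2, fitted at −2.79, to Grem1 at 1.74, and every SMAD is grey.

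Among 11 receptors and co-receptors 9 were measured, 1 was lower and none was higher, while 7 of the 9 differences were negative (median −0.32). Acvr2a, a type II receptor for activins and myostatin, lay at −1.44, −1.37 and −1.46 with the mimic and at −0.17 and −0.52 with the scramble. The mimic arrays sat together below both scramble arrays. The gene fell by 1.08 ± 0.20 (SE) on the log2 scale, or 2.11-fold (limma, adjusted p = 0.0143; mm9 chr2:48758429-48758488, plus strand). Its probe was well above background on 4 of 4 scramble scans and on 1 of 6 mimic scans, so its mimic level is near the limit of the array and the fold is uncertain; with normexp background correction the difference was −0.60 and did not pass. Acvr2a did not pass in 8 of 18 settings, which include leaving out any 1 of the mimic arrays and the second scan day alone. The related receptor Acvr2b differed by −0.03 with an interval of −0.51 to 0.45.

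The receptors whose probes hold the seed match did not pass. Tgfbr1, the type I receptor of TGF-beta, was at 0.35, 0.86 and 0.53 with the mimic and at 1.46 and 0.75 with the scramble. Mimic array 2 lay above scramble array 2, and the difference was −0.52 ± 0.27 (SE; limma, adjusted p = 0.267, interval −1.15 to 0.10). Tgfbr2, the type II receptor, was at 3.52, 3.64 and 3.63 with the mimic and at 4.22 and 3.97 with the scramble, without overlap. The difference of this probe was −0.50 ± 0.20 (SE; limma, adjusted p = 0.160). The other Tgfbr2 probe, whose sequence with the match is printed above, had −0.81 ± 0.26 (SE; limma over all kept probes, adjusted p = 0.0935).

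Tgfbr3, or betaglycan, a co-receptor that presents TGF-beta to the signalling receptors, was the receptor with the largest positive difference. It was at 1.52, 1.86 and 1.46 with the mimic and at 0.77 and 0.88 with the scramble. The groups stood apart, and the difference of 0.79 ± 0.21 (SE) fell just short of the threshold (limma, adjusted p = 0.0537). It passed in 7 of 19 alternative settings. Bmpr2, the type II receptor of BMPs, shows how 1 array can set a mean. It lay at −0.28, −2.22 and −0.26 with the mimic and at 0.41 and 0.19 with the scramble. The low value came from mimic array 2 alone, and the difference of −1.22 ± 0.55 (SE) did not pass (limma, adjusted p = 0.208). Without mimic array 2 the difference was −0.57, which did not pass either. The type I receptors Acvr1 (0.32), Acvr1b (−0.32) and Bmpr1a (−0.12) had overlapping groups. The co-receptor Eng and the decoy receptor Bambi were below that limit on every scan.

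Of 7 secreted antagonists and binding proteins 5 were measured, none was lower and 1 was higher. Grem1, gremlin, binds BMPs such as the products of Bmp2 and Bmp4 and keeps them from their receptors. It lay at 4.24, 4.55 and 4.11 with the mimic and at 2.52 and 2.60 with the scramble. Every mimic array was more than 1 log2 unit above both scramble arrays. The levels averaged 4.30 ± 0.23 (SD, n = 3) and 2.56 ± 0.05 (SD, n = 2), a rise of 1.74 ± 0.21 (SE) on the log2 scale or 3.33-fold (limma, adjusted p = 0.00153; mm9 chr2:113589227-113589286, minus strand). Grem1 passed under all 19 alternative settings.

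The remaining antagonists did not pass. Fstl1 (0.23), Fstl3 (−0.12) and Nbl1 (0.19), which encode 2 follistatin-like proteins and a BMP-binding protein of the DAN family, had small differences. Noggin, Nog, was at 0.12, −1.43 and −0.42 with the mimic and at −0.46 and −0.68 with the scramble. Its mimic arrays spanned both scramble arrays, and its interval of −0.94 to 0.92 allows a change of nearly 1 log2 unit either way. Follistatin, Fst, which binds activins and myostatin, was well above background on 1 scramble scan only, and chordin, Chrd, on 2 mimic scans only.

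None of the 12 SMADs and their regulators passed the test. The 8 measured ones had a median difference of 0.15, a range of −0.64 to 0.42 and a smallest adjusted p of 0.109 (limma). That value belonged to Smad2, which carries TGF-beta and activin signals and was at 0.28, −0.04 and 0.05 with the mimic and at 0.93 and 0.55 with the scramble. Its groups did not overlap and its difference was −0.64 ± 0.22 (SE). Its partner Smad3 was at 3.49, 3.61 and 3.83 with the mimic and at 3.69 and 2.89 with the scramble. Here scramble array 1 lay among the mimic arrays and scramble array 2 below them.

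The same spread between the 2 scramble arrays marked Smad4, the shared partner of the receptor-regulated SMADs, at 3.90 and 3.16, and Smad5, a mediator of BMP signals, at 4.11 and 3.14. Their mimic arrays lay at 3.81, 4.01 and 4.04 for Smad4 and at 3.68, 3.90 and 3.70 for Smad5, and the intervals of the differences were −0.17 to 1.01 and −0.53 to 0.81. Over all 35 measured members 23 were higher on scramble array 1 than on scramble array 2. Without scramble array 1 the group held 1 array, so its scatter was not measured. The differences were then 0.75 for Smad3, 0.80 for Smad4, 0.90 for Inhbb, 0.84 for Bmp1 and −0.84 for Tgfb1.

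Smad1, another BMP mediator, differed by 0.16. The ubiquitin ligases Smurf1 and Smurf2, which mark SMADs and receptors for breakdown, differed by 0.34 and −0.26, and the corepressor gene Skil by −0.32. The inhibitory SMADs, which are themselves induced by the pathway, gave no tested value: no scan had Smad6 well above background, and 2 mimic scans had Smad7. No scan had Smad9, and 1 mimic and 2 scramble scans had the corepressor gene Ski, well above background.

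Ccn2, or connective tissue growth factor, a matrix protein induced by TGF-beta and by other signals, had the largest fitted difference of the measured members, although with normexp background correction that of Grem1 was larger. It lay at −1.95, −2.05 and −2.18 with the mimic and at 0.56 and 0.90 with the scramble. All mimic arrays lay below both scramble arrays. The probe (mm9 chr10:24318281-24318340, plus strand) was not well above background on the 6 mimic scans and was so on 4 of 4 scramble scans, so its mimic level has only a bound. Against the lowest signal that counted as well above background, it was 4.49-fold lower with the mimic. The fitted difference was −2.79 ± 0.21 (SE; limma, adjusted p = 0.000134). That bound holds for the main background correction and is not a minimum fold under others. Ccn2 passed under all 18 alternative settings that could give a value, and with normexp background correction its difference was −1.37, against 1.59 for Grem1.

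**Figure D3:**
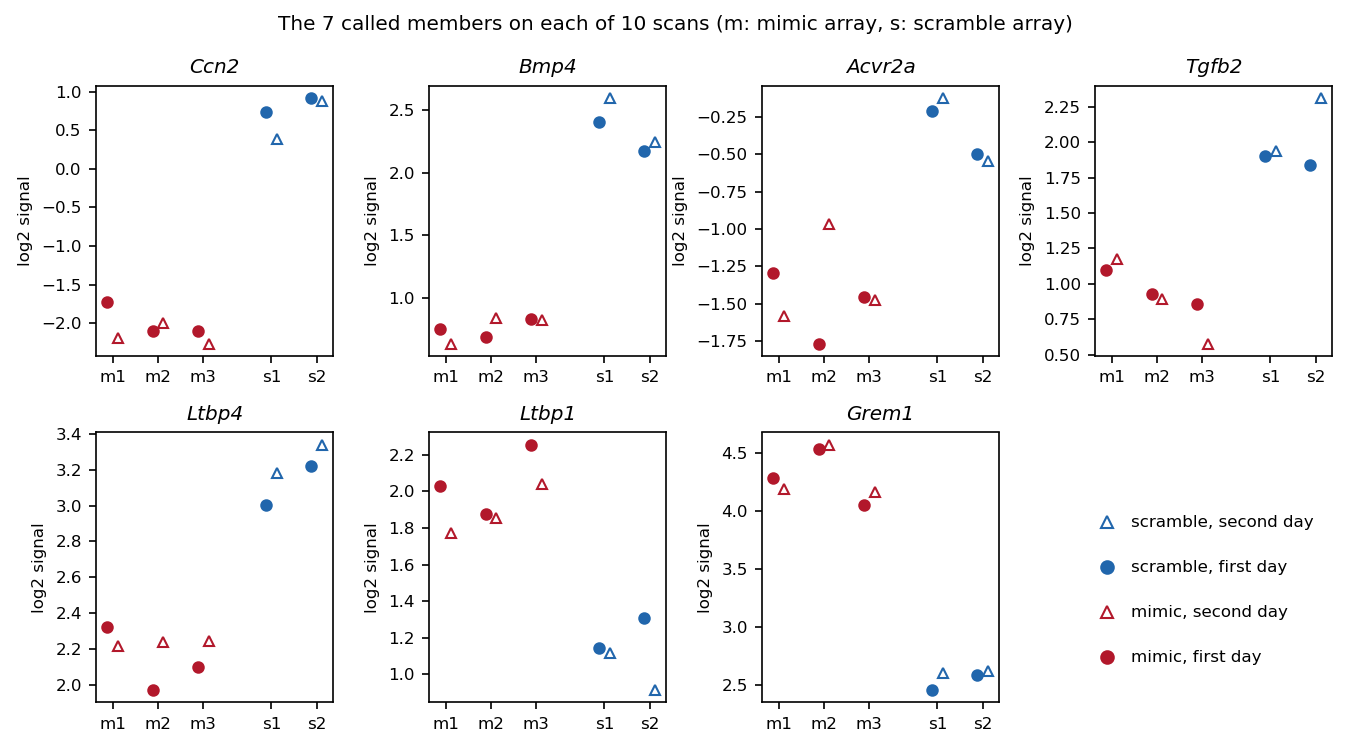
For the 7 genes that passed, each of the 10 scans is shown, with mimic arrays m1 to m3 and scramble arrays s1 and s2 on the horizontal axis and the log2 signal relative to the 75th percentile on the vertical axis; filled circles are scans of the first day and open triangles those of the second day. On both days every mimic scan lies on the same side of every scramble scan for each of the 7 genes. Grem1, for instance, has mimic scans from 4.05 upwards and scramble scans from 2.45 to 2.61.

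For all 7 genes that passed, mimic and scramble arrays did not overlap, so the sign had to be the same within both rows of the slide. Each row held mimic and scramble arrays, the second only mimic array 2 and scramble array 2. Mimic minus scramble in the first and second row was −1.73 and −1.44 for Bmp4 and 1.65 and 1.95 for Grem1. It was −1.28 and −0.85 for Acvr2a, −0.99 and −1.16 for Tgfb2, −0.87 and −1.17 for Ltbp4, and 0.90 and 0.76 for Ltbp1. Ccn2 was lower in both rows, and its size there is not given because its mimic level has only a bound. With the row as a block, 5 members were lower and 1 was higher.

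Of the 46 genes 27 had 1 probe and 19 had more, and 45 of the 73 probes were kept. Of the genes that passed, Bmp4, Ltbp1 and Acvr2a each had 2 probes, of which 1 was kept. Of the 8 members with more than 1 kept probe, 4 had differences of the same sign in each probe (Ltbp3, Ltbp4, Tgfb2 and Tgfbr2). The other 4 had both signs. Acvr1 had 0.32 and −0.21, Smad4 had 0.42 and −0.05, and Smurf2 had −0.26, −0.30 and 0.70. Values of these genes therefore depend on the probe that stands for them, and none of their probes passed.

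**Figure D4:**
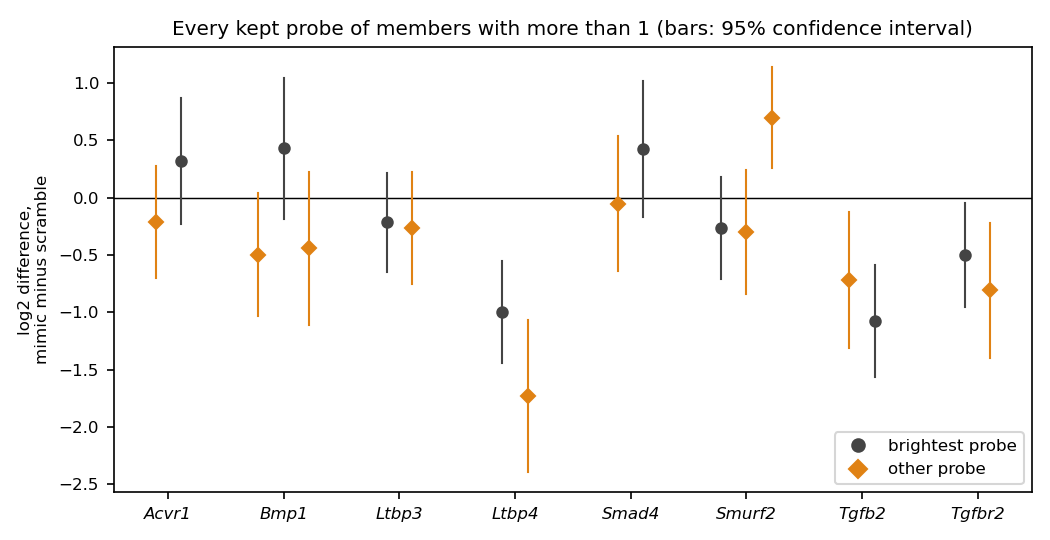
Every kept probe of the 8 members with more than 1 is plotted as its log2 difference, mimic minus scramble, with a 95% confidence interval; black circles are the brightest probes, which stand for the gene, and orange diamonds the others. Both probes of Ltbp4 lie below 0, at −0.999 and −1.73, whereas the probes of Acvr1, Bmp1, Smad4 and Smurf2 fall on both sides.

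Genes of the same pathway outside the 46 were taken as 3 further lists. Of 65 other components, such as further ligands, antagonists and SMAD partners, 26 were measured, and 1 was lower and 1 higher (7.69% against 9.74% of all genes), with a median of 0.18. Pmepa1, which is induced by TGF-beta and dampens its SMAD signal, was at −0.72, −0.34 and −0.23 with the mimic and at 2.19 and 1.52 with the scramble. It fell by 2.28 ± 0.27 (SE) on the log2 scale, 4.87-fold (limma, adjusted p = 0.00118). Bmper, a secreted BMP modulator, was at 1.09, 1.12 and 0.77 with the mimic and at −0.50 and −0.38 with the scramble. It rose by 1.44 ± 0.21 (SE; limma, adjusted p = 0.00366).

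Of 20 genes known to respond to TGF-beta or activin 18 were measured, with 3 lower and 1 higher (22.2% called, against 9.74% of all genes). The median was 0.09, equal to that of all genes. Postn, periostin, was not well above background on the mimic scans, with 0.31 and 0.09 on the scramble arrays. By the same kind of bound as for Ccn2 it was 3.12-fold lower (limma, adjusted p = 0.000164 for the fitted difference). Acta2, smooth muscle actin, fell from 7.08 and 7.24 to 4.61, 4.87 and 4.66, by 2.45 ± 0.20 (SE; limma, adjusted p = 0.000202). Tagln, transgelin, fell by 1.71 ± 0.25 (SE; limma, adjusted p = 0.00402). Timp1, an inhibitor of matrix proteases, rose by 1.31 ± 0.27 (SE; limma, adjusted p = 0.0202). Timp1 did not pass once scramble array 2, mimic array 2 or mimic array 3 was left out, and neither Timp1, Tagln nor Bmper passed without a filter on dim probes. Normexp background correction brought the difference of Bmper to 0.80 and that of Postn to −1.46, both still past the threshold. The other 14 did not pass and ran from −0.72 to 0.89, with a median of 0.16. Among them were Snai2 (0.89), Tgfbi (0.71), Ccn1 (−0.47) and Col1a1 (−0.46), so the list did not move in 1 direction.

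Of 15 genes known to respond to BMPs 8 were measured, 2 were lower and none was higher (25.0% called, against 9.74% of all genes). The median was −0.54. Hey1, a transcriptional repressor that also answers to Notch, was at 0.28, 0.43 and 0.00 with the mimic and at 3.52 and 2.77 with the scramble. It fell by 2.91 ± 0.27 (SE; limma, adjusted p = 0.000364). Id3, an inhibitor of myogenic bHLH factors, was at 2.20, 2.27 and 2.35 with the mimic and at 3.05 and 3.37 with the scramble, and fell by 0.94 ± 0.20 (SE; limma, adjusted p = 0.0243). Id3 did not pass in 7 of 19 settings, which include leaving out any 1 mimic array or scramble array 2. The related genes Id1, with −0.61 (limma, adjusted p = 0.140), and Id2, with 0.05, did not pass.

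**Figure D5:**
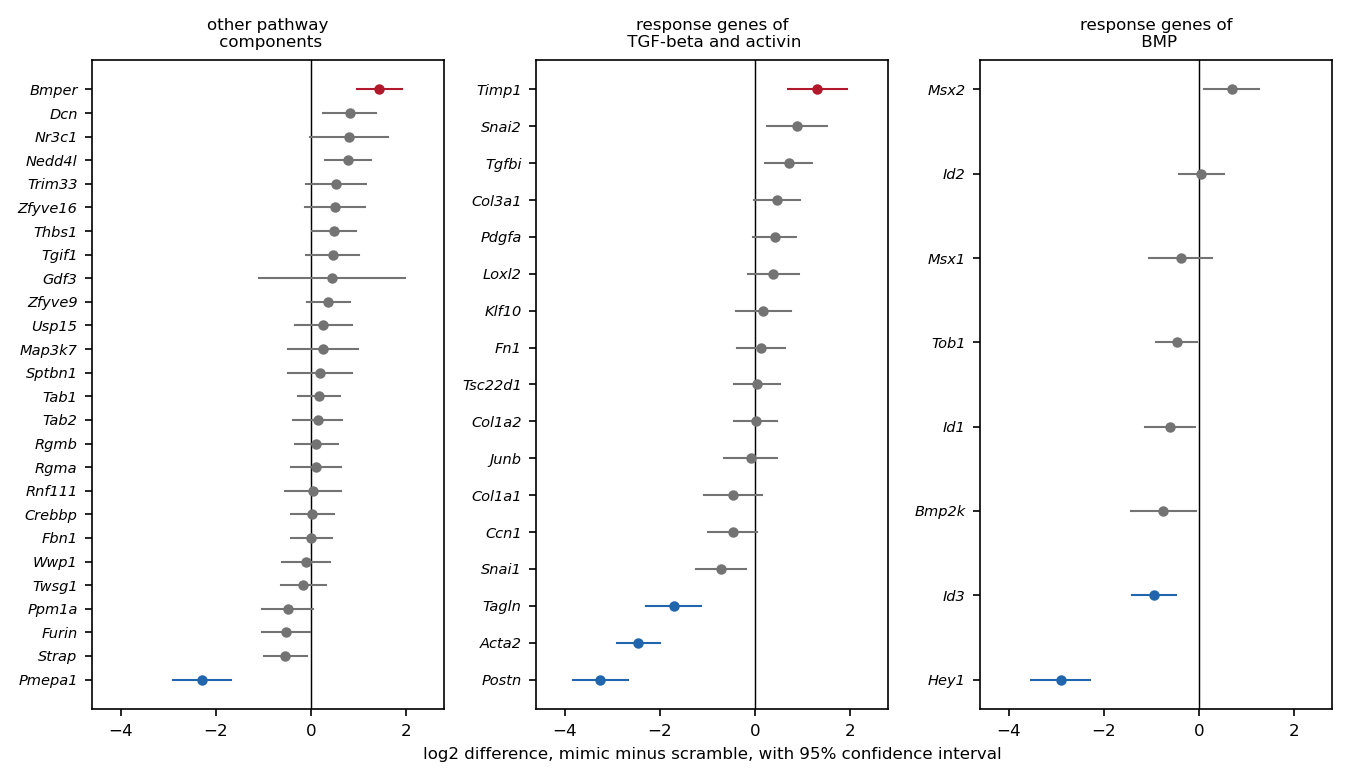
Log2 differences, mimic minus scramble, with 95% confidence intervals from limma, are shown for the measured genes of the 3 further lists, all but 1, with blue and red for genes lower and higher at an adjusted p below 0.05 and grey for the rest. Grey points lie between −0.75 and 0.89, and the coloured ones are Pmepa1 at −2.28, Bmper at 1.44, Postn, Acta2 at −2.45, Tagln at −1.71, Timp1 at 1.31, Hey1 at −2.91 and Id3 at −0.94.

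Markers of the cell state moved with the same contrast. Of 8 myoblast markers 7 were measured and all 7 were lower, with a summed linear signal of 148 to 157 on the mimic arrays and 304 to 353 on the scramble arrays. Itga7, at 6.80 with the mimic and 7.54 with the scramble on the log2 scale, made up most of these sums. The remaining marker, Myf5, was too dim to be tested and went the other way. It was well above background on 3 mimic scans and on 0 scramble scans, with every mimic array above both scramble arrays. All 9 markers of myogenic differentiation were measured and 8 were lower, with summed signals of 13.2 to 16.5 and 437 to 455, while Ckm differed by −0.59 and did not pass. Of all genes tested 3.89% were lower. Fgfr4, Myom3 and Casq2 were kept through their scramble scans alone, with 4 of these and 0 mimic scans well above background. Among markers of other cells, 3 of 7 for leukocytes were measured and none passed (summed signals 15.1 to 17.8 and 14.55 to 15.04). Most of these sums came from 1 probe of Itgam, at 3.85 with the mimic and 3.70 with the scramble on the log2 scale. The other Itgam probes were well above background on 0 mimic scans. Kdr was the only measured one of 4 endothelial markers and did not pass (0.38), and none of the 4 osteoblast or 4 adipocyte markers was measured, although 1 osteoblast marker was seen on at least 1 scan. The part of the lower myogenic markers in the values of the pathway genes was not tested.

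The windows of 250 bases before the RefSeq transcript start (GRCm38.p6) were searched on both strands for motifs of SMADs, TEAD factors and E-box binding factors, with 33 of the 46 members matched through 40 windows, some of them overlapping, and with 32851 windows in all. CAGAC, the SMAD-binding element, was found in 18 of the 40 member windows (45.0%) and in 42.2% of all windows. GGCGCC, a GC-rich element that SMADs of the BMP branch can bind, was found in 12 (30%) and in 9.59% of all. CAGCTG, the only form of the E-box that was searched, was found in none of the 40 and in 13.0% of all. GGAATG, the element of TEAD factors, was found in 1 (2.50%) and in 12.6%. The windows of Tgfb2, a ligand that fell, and of Grem1, the antagonist that rose, are shown because both hold CAGAC and only that of Grem1 also holds GGCGCC; both motifs are in capitals.

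Tgfb2 (GRCm38.p6 chr1:186705990-186706239, minus strand): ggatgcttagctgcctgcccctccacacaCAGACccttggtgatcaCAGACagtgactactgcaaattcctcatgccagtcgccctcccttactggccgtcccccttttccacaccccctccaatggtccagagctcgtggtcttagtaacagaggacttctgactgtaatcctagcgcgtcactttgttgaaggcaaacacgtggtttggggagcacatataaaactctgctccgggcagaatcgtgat

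Grem1 (GRCm38.p6 chr2:113758649-113758898, minus strand): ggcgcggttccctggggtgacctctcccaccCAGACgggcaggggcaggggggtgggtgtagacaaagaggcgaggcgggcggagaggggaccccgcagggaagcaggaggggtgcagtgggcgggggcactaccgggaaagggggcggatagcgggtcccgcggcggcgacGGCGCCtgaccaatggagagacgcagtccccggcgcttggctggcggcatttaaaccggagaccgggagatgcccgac

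Counted from the transcript start, CAGAC begins at −221 and −204 in the Tgfb2 window and at −219 in the Grem1 window, where GGCGCC begins at −78. Of the 7 genes that passed, 6 had a window and Ccn2 was not searched. CAGAC was present in those of 4, Acvr2a, Grem1, Ltbp1 and Tgfb2, which moved in both directions. GGCGCC was present in those of Grem1, which rose, and of Ltbp4, which fell. These are matches of letters only, and binding was not measured.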

How the data were processed

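The deposited scanner files hold spot intensity values on a linear scale. Agilent Feature Extraction made them, version 12.0.0.7 per the file headers and 10.7.3.1 per the submitters' processing notes, with probe coordinates in mm9. The deposited series matrix does not state its scale, centring or direction. Its values (column medians 177.5 to 356.3) followed each scan's own log2 intensity at r of at least 0.999, so its scale was read as linear, and its between-array step remains unknown.

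The signal was log2 of the background-corrected processed signal minus the 75th percentile of the scan, without control spots and spots marked as outliers. A probe was kept when at least 0.5 of its spots were well above background on at least 4 of 10 scans (17455 probes), and the brightest kept probe stood for a gene (13677 genes). Scans of an array position were averaged and fitted in R 4.3.3 with limma 3.58.1 (lmFit, eBayes; 5.15 prior and 3 residual degrees of freedom). Confidence intervals cover 95%. For a bound, each dim array took its own signal or the lowest signal counted as well above background there, whichever was higher, and the mean of these was set against the mean of the bright group. That lowest signal is that of any probe on the scan, not a limit of the probe in question. Names were updated through RefSeq tables of GRCm38.p6 (28026 probes by accession, 3418 by symbol, 295 by synonym, 23942 kept), and no mm9 annotation was used. At most 1 spot of a scan was saturated.

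All 46 members are named, with full values for those that passed, and every gene of the further lists that passed, at most 6 a list. Values of members near the threshold, and of Snai2, Tgfbi, Ccn1, Col1a1, Id1 and Id2, were picked after they were seen. The members and lists were chosen with earlier results of these data known. The value of 1 gene of the further lists is not reported here. The fit was tested on simulated data, where it recovered most large changes, missed most small ones and made false calls more often than the nominal rate. Alternatives covered scaling, background correction, filters, probes, scan days, blocks, left-out arrays and the series matrix.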

Additional observations from a re-analysis of the deposited data

How the results depend on the processing

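Of the 7 members and 8 genes of the further lists that passed, none reversed its sign under those of 19 other settings that could give a value. The next brightest probe, an alternative chosen after seeing the data, was available for Tgfb2, Ltbp4 and Pmepa1 of these and kept their signs. Ccn2, Bmp4, Grem1, Pmepa1, Postn, Acta2 and Hey1 passed wherever they could be tested. In the reported fit 1332 genes passed (3479 at an unadjusted p below 0.05, 13 of them measured members), with 5 members lower and 2 higher. The number of genes was 824 after scaling to the scan median, 426 of 34607 without a filter, 864 with slide row as a block and 4226 with 10 scans as separate samples. Members lower were 2 after scaling to the scan median and 2 without a filter, and 8 with 10 scans as separate samples. Members higher were 1 after scaling to the scan median, with the 75th percentile over bright probes only (those well above background on all 10 scans), with normexp, without a filter, on the second day and with slide row as a block, and 5 with 10 scans as separate samples. Leaving out 1 array at a time gave 584 to 3773 genes, 2 to 6 members lower and 1 to 6 higher. The causes were not tested. The fit without a filter adjusts over more genes, and the part of this in its lower count was not tested either. The 75th percentile over bright probes moved the median of all genes from 0.09 to −0.02 and that of the members to −0.15. With 10 scans and replicate block, 2300 genes passed, with 7 members lower and 3 higher. The correlation of same-numbered scans' deviations from the group means was 0.19, −0.05, −0.27 and 0.14, each scramble scan correlated best with a mimic scan of another number, so the replicate numbers were not used as pairs. Signal over background limits 11 members, which gave no tested value, and the mimic levels of Ccn2, Postn and Acvr2a.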
